A study of Mus musculus with 4 samples.

Results

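The nuclear genes of oxidative phosphorylation were examined in mouse bone marrow dendritic cells, antigen-presenting cells of the C57BL/6 strain grown from marrow. Members were all genes with a single annotated symbol that starts with Nduf, Uqcr, Cox4 to Cox8 or Atp5, together with Sdha to Sdhd, and the brightest probe set by mean signal stood for each gene. This gave 84 of the 12393 genes measured: 34 subunit genes of complex I, 4 of complex II, 8 of complex III, 16 of complex IV, 17 of complex V, and 5 complex I assembly factors of the Ndufaf type. The groups were NKT-modulated DC, that is, dendritic cells (DC) changed by natural killer T (NKT) cells, and immature DC, with 2 arrays of total RNA each. The design text gives CD11c cells as the source of RNA, and CD11c is a surface protein of DC. The labels do not say how or for how long the NKT cells acted, nor whether they were removed. They also do not say whether arrays came from separate cultures, and p-values then cover only differences from array to array, technical ones included. The design text names a one-cycle labelling kit and the sample labels a two-cycle one, so the amplification is not settled. It also speaks of experiments in triplicate, while 4 arrays, 2 in each group, were analysed here.

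Oxidative phosphorylation passes electrons from NADH (complex I) and succinate (complex II) through ubiquinone, complex III and cytochrome c to oxygen (complex IV), and the proton gradient built on the way drives ATP synthesis by complex V. Most subunits are encoded in the nucleus and a smaller set in mitochondrial DNA. In dendritic cells, resting cells are known to rely on this pathway, and strong activation, for instance by bacterial products, is known to move them toward glycolysis.

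Few members passed the test, and all that did were lower. In NKT-modulated DC 7 of 84 members were lower than in immature DC and 0 were higher at an adjusted p under 0.05 (limma, Benjamini-Hochberg over all probe sets). That is 8.33% lower, against 6.9% lower and 5.99% higher among all 12393 genes, so the share of lower members was near the background. Either way the share was 8.33% for members and 12.9% for all genes. At an unadjusted p under 0.05, 22 members (26.2%) were lower and 1 (1.19%) was higher, against 16.6% lower and 11.5% higher among all genes. Most members were bright, and the counts among bright genes alone are in the next paragraph. The 7 genes were Ndufa2, Ndufa6 and Ndufb10 of complex I, Sdhd of complex II, Cox7a2l and Cox8b of the complex IV names, and Atp5k of complex V, with log2 changes between -0.98 and -0.42. With any 1 of the 4 arrays left out, a group has 1 array. Fewer genes were then called, among the members and over all genes, so counts are not given. The median change of the members was then -0.18 to -0.10, against -0.05 to -0.04 for all genes.

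Changes of the members were small and closely grouped. Their SD over genes was 0.21 on the log2 scale, against 0.63 over all genes, and 79 of 84 (94.0%) had changes smaller than 0.5 in size, against 75.0% of all genes. For 79 members (94.0%) the 95% interval of the change lay within a 2-fold difference in either direction, against 67.7% of all genes, and for 55 it lay within 0.5, against 22.1%. These intervals are not adjusted for the number of genes. Most members were bright, with a median mean signal of 2518 against 214.3 over all genes. Among the 2688 genes whose mean normalized log2(signal + 16) was over 10, the SD of changes was 0.16 for the 70 members and 0.505 for all. Of those 70 members 6 (8.57%) were lower and 0 higher, against 12.5% lower, 11.2% higher and 23.6% either way among all bright genes. At an unadjusted p under 0.05, 21 of the 70 were lower and 1 higher, against 685 lower and 460 higher of the 2688 bright genes. Changes smaller than 0.5 were found for 68 of the 70, against 81.7%, and the interval lay within a 2-fold difference for 98.6%, against 89.6%, and within 0.5 for 52 of 70, against 57.5%.

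The members' changes were centred slightly below 0, by an amount that depended on scaling. The median log2 change of the members was -0.14, against -0.04 for all genes, and 65 of 84 (77.4%) lay below 0, against 55.1% of all genes. On normalized log2 values, both NKT-modulated arrays were below both immature arrays for 43 members (51.2%), against 32.5% of all genes, and above them for 3 members, Uqcrfs1, Atp5b and Ndufaf4, against 23.8%. On the deposited signals the counts were 33 of 84 lower, close to the 38.4% of all genes, and 2 higher, Uqcrfs1 and Atp5b, against 18.2%. Lower on both scales were 30 members, but the share of all genes lower on both was not computed. On normalized values, among the bright genes 58 of 70 members lay below 0, against 59.1%, and 39 had both NKT-modulated arrays lower, against 41.0%, and 3 higher, against 26.6%. The median was -0.14 by quantile normalization, -0.16 without further normalization, -0.08 after cyclic loess and 0.01 after median scaling, where the median of all genes was 0.06, so that relative to all genes it was -0.10, -0.05, -0.08 and -0.05. After median scaling 0 members were lower and 1, Uqcrfs1, was higher.

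**Figure D1:**
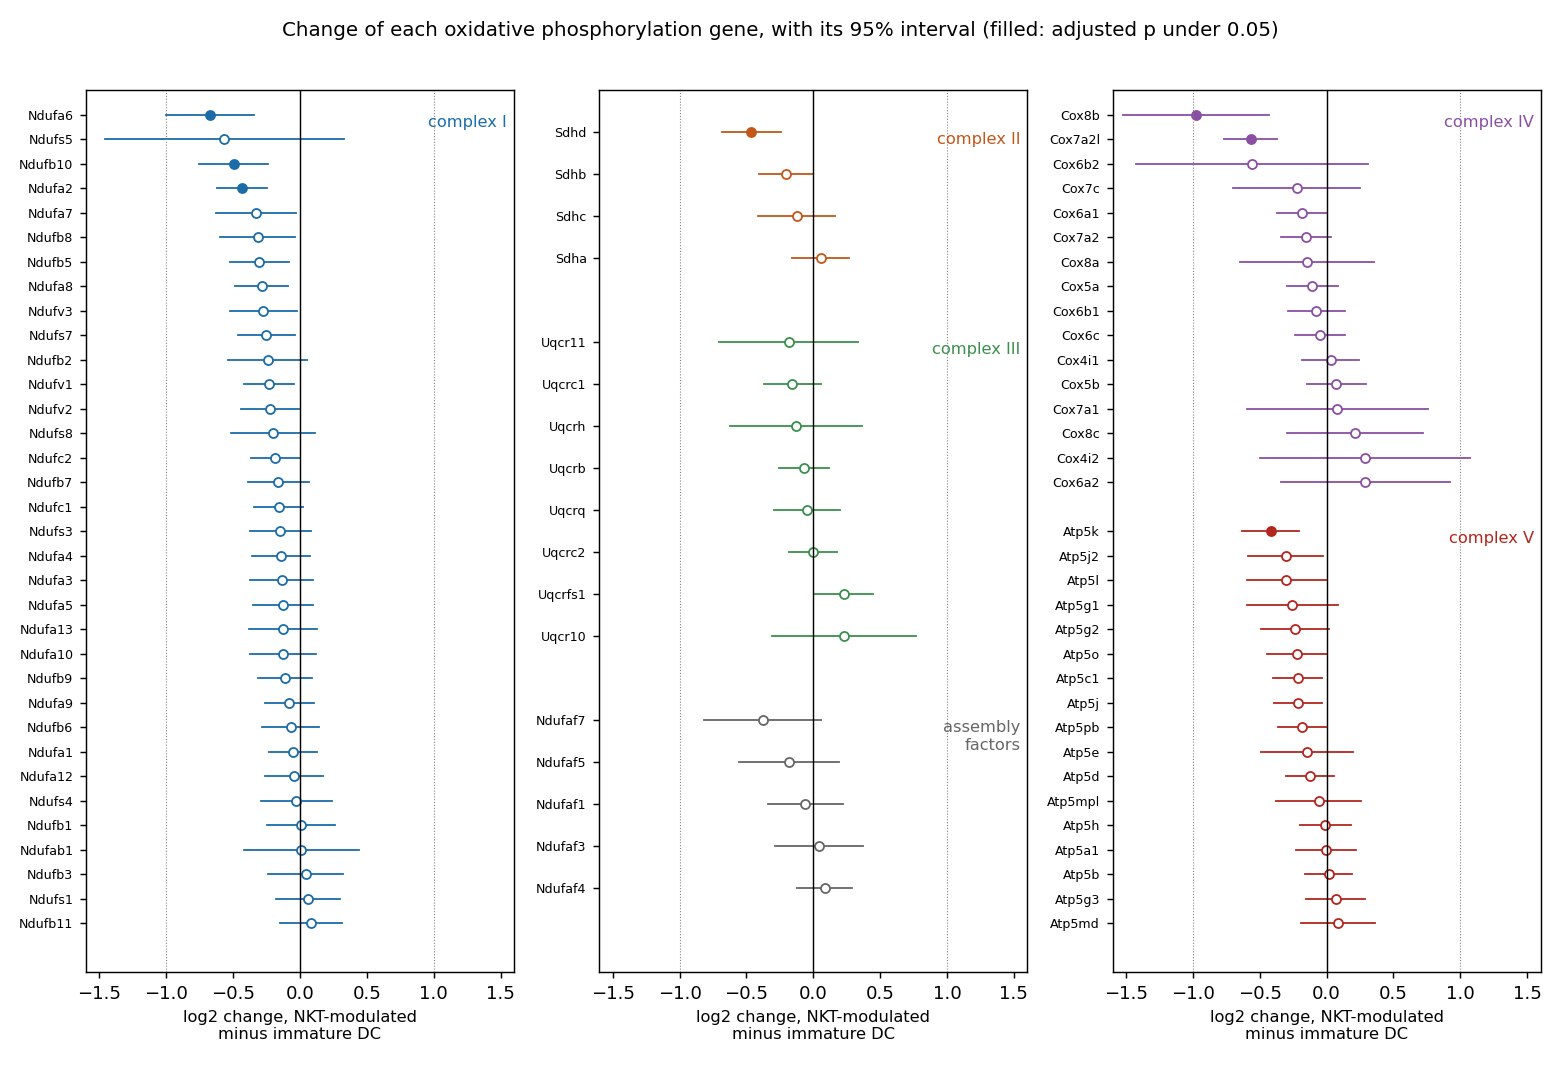
Log2 change (x axis, NKT-modulated minus immature DC) of each of the 84 genes, in panels by complex, with points for the estimates, bars for 95% intervals (n = 2 arrays per group) and filled points for an adjusted p under 0.05. Dotted lines mark a 2-fold difference; 79 intervals lie between them, and the 7 filled points all lie below 0.

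Complex I takes electrons from NADH. Of its 34 genes 3 (8.82%) were lower and 0 higher, against 6.9% and 5.99% of all genes. At an unadjusted p under 0.05, 12 (35.3%) were lower and 0 higher, against 16.6% and 11.5% of all genes. Of the 2688 bright genes, 685 were lower and 460 higher at that threshold, and 32 of the 34 genes were bright. The median change of complex I was -0.15. The 6 measured genes of the catalytic core had changes from -0.25 to 0.06, and 0 of them passed by the brightest probe set. Ndufv1, which binds the flavin that accepts electrons from NADH, had signals of 2887 and 2717 in NKT-modulated DC, against 3101 and 3564 in immature DC, a change of -0.23 ± 0.08 (limma SE, n = 2 arrays in each group, here and below; adjusted p = 0.119). Ndufs1, the largest iron-sulfur subunit, had signals of 1285 and 1238 in NKT-modulated DC, between those of the immature arrays at 1160 and 1469, with a change of 0.06 ± 0.10. Ndufs3, Ndufs7, Ndufs8 and Ndufv2 complete the measured core, and their changes were -0.15, -0.25, -0.20 and -0.23.

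By the brightest probe sets, the called genes of complex I were all accessory subunits, which surround the core. The core genes Ndufs7 and Ndufs8 were lower by another probe set, as given further below, so this split depends on the probe set. Ndufa2, of the NADH-binding module, had signals of 3373 and 3062 in NKT-modulated DC, against 4109 and 4534 in immature DC, and fell by 0.43 ± 0.08 (adjusted p = 0.0190). Ndufa6, which docks the mitochondrial acyl carrier protein to the complex, had signals of 1192 and 1367 in NKT-modulated DC, against 1819 and 2526 in immature DC, and fell by 0.67 ± 0.14 (adjusted p = 0.0295). Ndufb10, of the membrane arm, had signals of 1300 and 1173 in NKT-modulated DC, against 1624 and 2130 in immature DC, and fell by 0.50 ± 0.11 (adjusted p = 0.0366). For each of the 3 the groups did not overlap. The 28 accessory genes ranged from -0.67 to 0.08. Ndufab1, the acyl carrier protein itself, had a change of 0.01 ± 0.18, and Ndufs5, the only dim gene of the complex at signals of 34.1 to 109.4, had an interval from -1.46 to 0.33.

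Assembly factors of complex I, which help build it and are not part of the finished enzyme, followed no common direction. Changes of Ndufaf1, Ndufaf3, Ndufaf4, Ndufaf5 and Ndufaf7 were -0.06, 0.04, 0.09, -0.18 and -0.38, and 0 of 5 passed, adjusted or not. Ndufaf7 was the lowest, at signals of 148.4 and 163.1 in NKT-modulated DC, against 237.2 and 246.3 in immature DC (adjusted p = 0.265).

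Complex II, succinate dehydrogenase, is also an enzyme of the TCA cycle and has 4 subunits, all measured. Of the 4 genes 1 was lower and 0 higher, against 6.9% and 5.99% of all genes. At an unadjusted p under 0.05, 2 were lower and 0 higher, against 16.6% and 11.5% of all genes. Sdhd, one of its membrane anchors, had signals of 1955 and 1874 in NKT-modulated DC, against 2724 and 2701 in immature DC, and fell by 0.46 ± 0.09 (adjusted p = 0.0276). Its groups did not overlap. Sdhb, the iron-sulfur subunit, had signals of 3399 and 3266 in NKT-modulated DC, against 3824 and 3870 in immature DC, with a change of -0.20 ± 0.08 (adjusted p = 0.197). Sdhc, the other anchor, and Sdha, the flavoprotein that oxidises succinate, had overlapping arrays and changes of -0.12 ± 0.12 and 0.06 ± 0.09. Sdhd had a dimmer probe set too, with a change of -0.22 and adjusted p = 0.432.

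Complex III, which passes electrons from ubiquinol to cytochrome c, had 0 genes called in either direction and a median change of -0.06. At an unadjusted p under 0.05, 0 of its 8 genes were lower and 1 was higher, against 16.6% and 11.5% of all genes. Uqcrfs1, the Rieske iron-sulfur protein, had signals of 5406 and 4588 in NKT-modulated DC, against 4110 and 4260 in immature DC, with a change of 0.23 ± 0.09 (adjusted p = 0.173). It was the only gene of complex III with both NKT-modulated arrays above both immature arrays. The core proteins Uqcrc1 and Uqcrc2 had changes of -0.16 and 0.00, and the small subunits Uqcrb, Uqcrh, Uqcrq, Uqcr10 and Uqcr11 lay between -0.18 and 0.23, with intervals as wide as -0.31 to 0.77 for Uqcr10.

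Complex IV, cytochrome c oxidase, reduces oxygen to water. Of its 16 genes 2 (12.5%) were lower and 0 higher, against 6.9% and 5.99% of all genes. At an unadjusted p under 0.05 the counts were also 2 and 0, against 16.6% and 11.5% of all genes. The generally expressed genes Cox4i1, Cox5a, Cox5b, Cox6a1, Cox6b1, Cox6c and Cox7a2 lay between -0.18 and 0.07. Cox4i1 had signals of 8372 and 7799 in NKT-modulated DC, against 7145 and 8083 in immature DC, a change of 0.03 ± 0.09 with an interval from -0.18 to 0.24. Cox5a had signals of 13340 and 11880 in NKT-modulated DC, against 12580 and 12370 in immature DC, with a change of -0.11 ± 0.08. Cox6a1, Cox7a2 and Cox8a had changes of -0.18, -0.16 and -0.15, with adjusted p of 0.198, 0.284 and 0.733. Cox7c, elsewhere an abundant transcript, was represented by a dim probe set here (signals from 116.1 to 173.4) and gave -0.22 ± 0.20.

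Cox7a2l had the lowest p of all members. Its protein, known as SCAF1, tethers complex III to complex IV in supercomplexes, and mice of the C57BL/6 strain are known to carry a shortened form. Signals were 4038 and 4171 in NKT-modulated DC, against 5670 and 6274 in immature DC. The groups stood well apart, and the gene fell by 0.57 ± 0.08 (adjusted p = 0.00849), that is, its level was 1.48-fold higher in immature DC. Its dimmer probe sets fell as well, by 0.60 ± 0.07 and 0.84 ± 0.14. Ndufa4, named for complex I and later shown to be a subunit of complex IV, had a change of -0.14 ± 0.09 (adjusted p = 0.404).

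Isoforms of complex IV known from muscle, lung or testis were dim, apart from Cox8c. Cox8b, a heart and muscle isoform, had signals of 6.49 and 4.47 in NKT-modulated DC, against 28.6 and 23.4 in immature DC, all near the pseudocount of 16. It passed with a fall of 0.98 ± 0.22 (adjusted p = 0.0440), but the size was set by the pseudocount: the change was -2.09 with a pseudocount of 1 (adjusted p = 0.0602) and -0.38 with 64. Cox4i2, Cox6a2 and Cox7a1 had overlapping groups, signals from 29.99 to 111.7 and changes of 0.29, 0.29 and 0.08. Cox6b2 and Cox8c, known from testis, had changes of -0.56 ± 0.36 and 0.21 ± 0.21. Signals ran from 18.2 to 57.9 for Cox6b2 and from 223.8 to 315.2 for Cox8c, against a median mean signal of 214.3 over all genes. No detection calls were used, so these levels are not read as expression.

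In complex V, the ATP synthase, changes varied little between genes (SD 0.14, the smallest of the 5 complexes). All 17 genes were bright, against 9 of 16 in complex IV, and the 70 bright members together had an SD of 0.16. The 17 changes lay between -0.42 and 0.08 with a median of -0.18. Of the 17 genes 1 (5.88%) was lower and 0 higher, against 6.9% and 5.99% of all genes and 12.5% and 11.2% of bright genes. At an unadjusted p under 0.05, 6 (35.3%) were lower and 0 higher, against 16.6% and 11.5% of all genes. In the catalytic F1 head, Atp5b had signals of 8579 and 8073 in NKT-modulated DC, against 7915 and 7965 in immature DC, and a change of 0.02 ± 0.07 with an interval from -0.16 to 0.19. Atp5a1 had a change of -0.01 ± 0.09, and the central shaft genes Atp5c1, Atp5d and Atp5e had -0.22, -0.12 and -0.15. The peripheral stalk genes Atp5h, Atp5j, Atp5o and Atp5pb ranged from -0.22 to -0.01, and 0 of the 9 head and stalk genes passed.

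The membrane genes of complex V included the called one. Atp5k, subunit e, which holds ATP synthase dimers together with subunit g, had signals of 3456 and 3001 in NKT-modulated DC, against 3963 and 4635 in immature DC, and fell by 0.42 ± 0.09 (adjusted p = 0.0344). Its 2 other probe sets had changes of -0.69 (adjusted p = 0.0433) and -0.21 (adjusted p = 0.204). Atp5l, subunit g, had signals of 1279 and 1006 in NKT-modulated DC, against 1432 and 1577 in immature DC, with a change of -0.30 ± 0.12 (adjusted p = 0.191). Atp5j2, subunit f, had -0.31 ± 0.12 (adjusted p = 0.163), while Atp5md and Atp5mpl, small proteins bound to the synthase, had 0.08 and -0.06. The c-ring genes Atp5g1, Atp5g2 and Atp5g3, which encode the same mature protein, had changes of -0.26 ± 0.14, -0.24 ± 0.10 and 0.07 ± 0.09, and 0 of 3 passed.

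**Figure D2:**
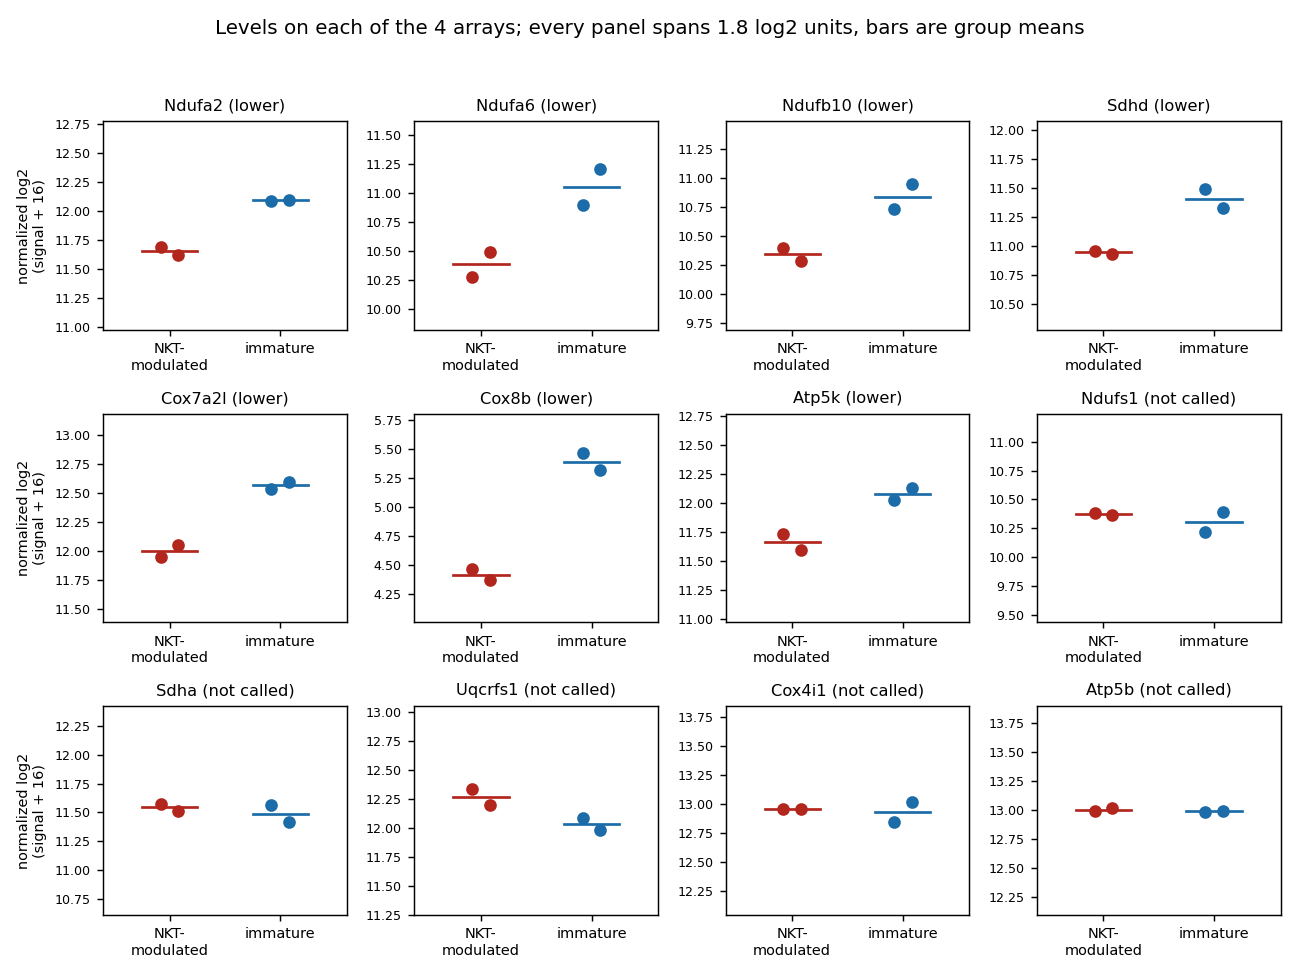
Normalized log2(signal + 16) on each array (y axis) for the 7 genes that passed and 5 central subunits that did not, with the NKT-modulated arrays on the left and the immature arrays on the right of each panel and bars for group means. All panels span the same range; in the 7 lower genes the groups do not overlap, and Atp5b varies by less than 0.05 over all 4 arrays.

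Compared as averages over genes, complexes I, II, IV and V had lower values in NKT-modulated DC and complex III overlapped. The mean normalized log2 value of complex I was 11.091 and 10.997 in NKT-modulated DC, against 11.200 and 11.260 in immature DC. For complex II it was 11.26 and 11.32 in NKT-modulated DC, against 11.52 and 11.41 in immature DC. Complex IV had 9.79 and 9.75 in NKT-modulated DC, against 9.89 and 9.90 in immature DC, and complex V had 11.94 and 11.82 in NKT-modulated DC, against 12.01 and 12.04 in immature DC. In these 4 complexes the groups did not overlap on this scale, by differences of -0.19, -0.18, -0.13 and -0.15. The average of complex IV included the 6 isoforms known from muscle, lung or testis, which were not read as expression above. Their changes ran from -0.98 to 0.29 with a median of 0.15, and the other 10 genes of complex IV had a median of -0.13. Summed deposited signals overlapped for complex I (95140 and 85740 in NKT-modulated DC, against 95100 and 108700 in immature DC), complex IV (63850 and 56810 in NKT-modulated DC, against 60730 and 64160 in immature DC) and complex V (85310 and 76510 in NKT-modulated DC, against 84620 and 87170 in immature DC). Those of complex II did not overlap, at 10170 and 10070 in NKT-modulated DC, against 11440 and 11770 in immature DC. Complex III had 11.39 and 11.15 in NKT-modulated DC, against 11.22 and 11.35 in immature DC, and its difference of -0.02 was smaller than its SD of 0.14 between arrays of a group. By quantile normalization the median changes of complexes I to V were -0.15, -0.16, -0.06, -0.09 and -0.18, against -0.04 for all genes. After median scaling they were -0.01, -0.02, 0.14, 0.15 and 0.01, against 0.06 for all genes. The median of each complex thus depended on the scaling. Complexes I, II and V were below all genes in both settings, and complexes III and IV were below in the first and above in the second. No difference between complexes was tested.

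**Figure D3:**
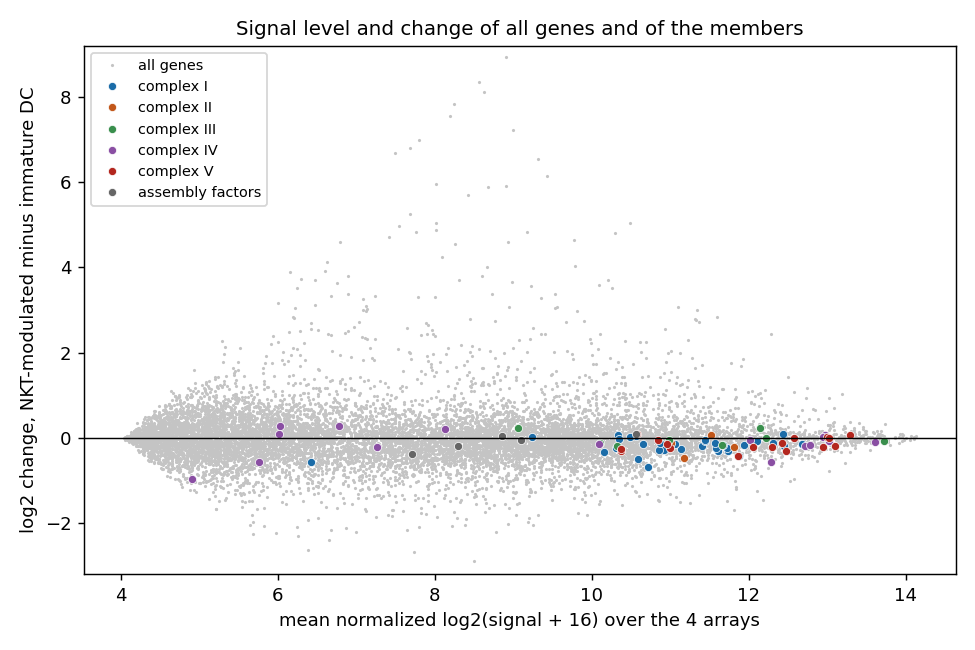
Log2 change (y axis, NKT-modulated minus immature DC) against mean normalized log2 signal (x axis) for all 12393 genes in grey and the 84 members in colour by complex. The members with a mean over 10 lie in a band from -0.67 to 0.23, and all genes with such a mean between -1.69 and 5.04. The other 14 members lie between -0.98 and 0.29, and changes of all genes reach 8.94.

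Promoters were searched because transcription of these genes is known to be driven by NRF-1 and by GABP, an ETS factor also called NRF-2. RefSeq promoters (GRCm38.p6) were matched by symbol for 70 of the 84 members, and the 250 bases before each start were read. The NRF-1 site searched, a palindrome spelled by the capitals of the first 4 stretches below, was found in 4 of 70 members (5.71%) and in 0.877% of all 27025 genes with a promoter. The ETS site ACCGGAAG, on either strand, was found in 4 members (5.71%) and 1.95% of all genes, and the YY1 site AAGATGGC in 1 member (1.43%) and 1.83%. Other lengths of these sites had been looked at before these 3 were kept, so the counts are a description. No member held more than 1 of the 3 sites. The stretches with an NRF-1 or ETS site follow, 5′ to 3′ on the strand of the gene, with the site in capitals.
Atp5k, chr5:108434420-108434469, minus strand: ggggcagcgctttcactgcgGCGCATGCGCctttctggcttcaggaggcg
Atp5g2, chr15:102671060-102671109, minus strand: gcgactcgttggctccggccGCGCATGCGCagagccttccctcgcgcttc
Cox6a1, chr5:115349091-115349140, minus strand: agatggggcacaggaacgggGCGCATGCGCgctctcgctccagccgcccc
Ndufaf4, chr4:24897950-24897999, plus strand: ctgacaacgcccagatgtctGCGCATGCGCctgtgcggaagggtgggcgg
Sdhd, chr9:50603868-50603915, minus strand: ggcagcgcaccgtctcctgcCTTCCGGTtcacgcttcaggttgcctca
Atp5e, chr2:174464176-174464223, minus strand: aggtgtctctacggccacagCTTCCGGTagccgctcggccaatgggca
Ndufb6, chr4:40279626-40279671, minus strand: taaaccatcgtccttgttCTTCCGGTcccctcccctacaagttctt
Ndufaf1, chr2:119662835-119662873, minus strand: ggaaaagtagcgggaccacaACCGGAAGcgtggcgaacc

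The genes with these sites did not move as a block. Among the 4 with an NRF-1 site, Atp5k fell by 0.42, and Cox6a1, Atp5g2 and Ndufaf4 had changes of -0.18, -0.24 and 0.09. Among the 4 with an ETS site, Sdhd fell by 0.46, and Atp5e, Ndufb6 and Ndufaf1 had changes of -0.15, -0.07 and -0.06. Cox7a2l, the most clearly lower member, had neither site nor the YY1 site in its 250 bases, which says only that these letters are not in that window. The 150 bases before its start are shown as the promoter of that gene.
Cox7a2l, chr17:83514334-83514483, minus strand: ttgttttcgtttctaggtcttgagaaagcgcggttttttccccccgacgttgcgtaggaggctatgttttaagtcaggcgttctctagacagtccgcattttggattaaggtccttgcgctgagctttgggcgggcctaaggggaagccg

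Of 16 measured regulators of mitochondrial genes, 1 was higher and 0 were lower, against 5.99% and 6.9% of all genes. Gabpb1, the beta subunit of GABP, had signals of 745.3 and 656.4 in NKT-modulated DC, against 224.5 and 321.2 in immature DC, and rose by 1.52 ± 0.16 (adjusted p = 0.00268). Gabpa, the subunit that binds DNA, had a change of -0.16 ± 0.10 (adjusted p = 0.393). Nrf1, the gene of NRF-1, had signals of 194.8 and 184 in NKT-modulated DC, against 154.9 and 124.5 in immature DC, and a change of 0.59 ± 0.21 (adjusted p = 0.142). Tfam, which packages mitochondrial DNA and takes part in its transcription, had -0.35 ± 0.10 (adjusted p = 0.0807). Of the subunits that mitochondrial DNA encodes, ND5 of complex I was the only gene of its list measured, with signals of 11400 and 9792 in NKT-modulated DC, against 9560 and 10520 in immature DC, and a change of -0.01 ± 0.10.

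Of 16 genes of pyruvate dehydrogenase and the TCA cycle, 0 were higher and 3 (18.8%) lower, against 5.99% and 6.9% of all genes. Their median was -0.16. Of the 16 genes 13 were bright, and 12.5% of all bright genes were lower. Idh2, the NADP-linked isocitrate dehydrogenase of mitochondria, had signals of 748.3 and 696.5 in NKT-modulated DC, against 1168 and 1364 in immature DC, and fell by 0.66 ± 0.09 (adjusted p = 0.00879). Idh3g, a regulatory subunit of the NAD-linked enzyme, fell by 0.46 ± 0.09 (adjusted p = 0.0232), and Suclg2, a dim subunit of succinyl-CoA ligase with signals from 16.3 to 54.3, fell by 1.05 ± 0.25 (adjusted p = 0.0474). Of 10 electron carriers and other quinone-linked genes, 1 was higher and 0 lower, against the same shares of all genes. Etfdh, which passes electrons from fatty acid oxidation to ubiquinone, rose by 0.42 ± 0.10 (adjusted p = 0.0453). Cycs, cytochrome c, and Cyc1, the complex III subunit that the symbol rule leaves out, had changes of 0.17 and -0.07.

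Of 25 assembly factors outside the rule, 0 were higher and 2 (8.0%) lower, against 5.99% and 6.9% of all genes. At an unadjusted p under 0.05, 2 were higher and 6 lower, against 11.5% and 16.6% of all genes. The same shares of all genes apply to the unadjusted counts in the rest of this paragraph. Below 0 lay 17 changes (68.0%), against 55.1% of all genes, and 8 lay above. The 2 lower genes act on complex IV: Coa3 fell by 0.51 ± 0.10 (adjusted p = 0.0239) and Coa6, which takes part in copper delivery, fell by 0.63 ± 0.13 (adjusted p = 0.0280). Coa5, of the same name series, went the other way, with a change of 0.27 ± 0.08 (adjusted p = 0.0816). Of 6 genes of uncoupling and exchange 1 (16.7%) was lower and 0 higher, against 6.9% and 5.99% of all genes. It was Atpif1, the inhibitor of ATP hydrolysis by complex V, which fell by 0.49 ± 0.09 (adjusted p = 0.0204). Of 8 coenzyme Q synthesis genes 0 passed (0 higher and 1 lower at an unadjusted p under 0.05). Coq10a had a change of -0.61 ± 0.21 (adjusted p = 0.141) and Coq4 one of -0.40 ± 0.20 (adjusted p = 0.295). Of 17 genes of mitochondrial membranes, import and chaperones 0 passed (2 higher and 1 lower at an unadjusted p under 0.05), with a median of -0.04; Timm23 and Hspa9 had the lowest p, at changes of 0.24 ± 0.07 and 0.31 ± 0.11 (adjusted p = 0.0985 and 0.131).

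Glycolysis genes passed in both directions. Of 21 measured, 3 were higher and 3 (14.3%) lower, against 5.99% and 6.9% of all genes, with a median of -0.08. Of the 21 genes 12 were bright, and 11.2% of all bright genes were higher and 12.5% lower. Pfkp, a phosphofructokinase, had signals of 3095 and 3120 in NKT-modulated DC, against 1609 and 1901 in immature DC, and rose by 0.87 ± 0.08 (adjusted p = 0.00197). Hk2, hexokinase 2, rose by 0.59 ± 0.11 (adjusted p = 0.0217), and Pdk1, a kinase that turns pyruvate dehydrogenase off, fell by 1.02 ± 0.18 (adjusted p = 0.0206). Slc16a1 was also higher, with a change of 0.49 ± 0.11 (adjusted p = 0.0455). Slc16a3 and Tpi1 were also lower, with changes of -0.64 ± 0.14 and -0.32 ± 0.08 (adjusted p = 0.0414 and 0.0477). Acod1, whose product itaconate inhibits succinate dehydrogenase, had signals of 8637 and 8162 in NKT-modulated DC, against 214.3 and 303.4 in immature DC, a rise of 5.04 ± 0.12 (adjusted p = 2.34e-05). Nos2, which makes nitric oxide, an inhibitor of complex IV, stayed at signals from 2.06 to 8.27 with a change of 0.17 ± 0.22.

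**Figure D4:**
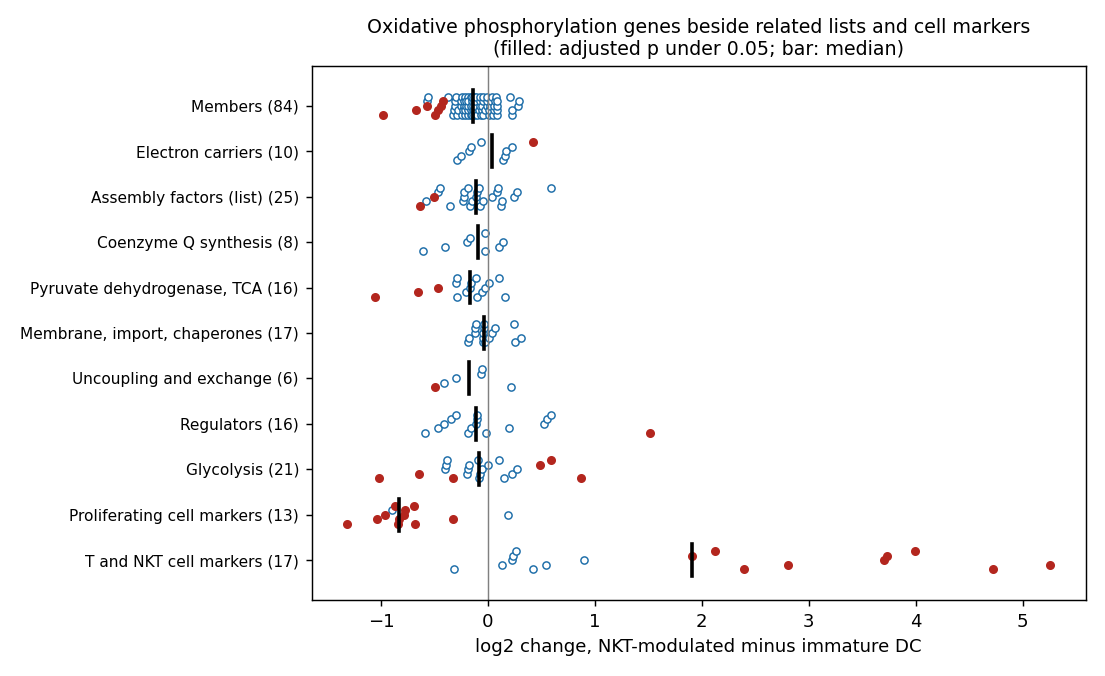
Log2 change (x axis, NKT-modulated minus immature DC) of the 84 members and of related lists and cell markers (y axis, number measured in brackets), with filled points for an adjusted p under 0.05 and bars for medians. The members' median is -0.14, and the medians of the mitochondrial and metabolic lists lie between -0.18 and 0.04, while proliferating cell markers have a median of -0.83 and T and NKT cell markers one of 1.91.

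Markers of other cells moved in the same arrays, where 5.99% of all genes were higher and 6.9% lower. Of 17 T and NKT cell markers 9 were higher and 0 lower, and their summed signal was 7068 and 5281 in NKT-modulated DC, against 1225 and 1191 in immature DC; Cd3g, a chain of the T cell receptor complex, rose by 5.26 ± 0.20. Signals of Cd3g were 1401 and 1046 in NKT-modulated DC, against 19.1 and 15.4 in immature DC. Of 13 markers of proliferating cells 11 were lower and 0 higher, with summed signals of 12640 and 12470 in NKT-modulated DC, against 18550 and 21490 in immature DC. Of 10 dendritic cell markers 3 were higher and 0 lower, and Itgax (CD11c) had a change of -0.19 ± 0.08 (adjusted p = 0.204). For the other lists, the counts higher and lower were 1 and 1 of 7 for NK cells, 1 and 0 of 5 for B cells, 1 and 1 of 7 for neutrophils, and 1 and 3 of 7 for macrophages and monocytes. Summed signals of B cell markers were 366.9 and 340.1 in NKT-modulated DC, against 149.8 and 112.6 in immature DC, and without Cd79b the other 4 overlapped, at 96.7 and 130.2 in NKT-modulated DC, against 114.5 and 80.6 in immature DC. Those of NK cell markers were 588.1 and 494.2 in NKT-modulated DC, against 889.9 and 943 in immature DC. Without Klrd1 the other 6 NK cell markers ran the opposite way, at 453.9 and 333.7 in NKT-modulated DC, against 251.3 and 226.4 in immature DC. The 3′ to 5′ signal ratio of the Gapdh control probe sets was 1.87 and 1.98 in NKT-modulated DC, against 1.76 and 1.44 in immature DC. That of Actb was 1.09 and 1.18 in NKT-modulated DC, against 1.18 and 1.16 in immature DC, and its groups overlapped. The part of these differences in the members' median was not tested, and in bulk RNA fewer cells of a type and less RNA per cell cannot be told apart.

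Of 84 members 45 had several probe sets, 72 besides the brightest; 5 of these were lower and 0 higher. Ndufs7 and Ndufs8, iron-sulfur subunits of the complex I core, were lower by a dimmer probe set (-0.38 and -0.54, with adjusted p of 0.0355 and 0.0175) and not by the brightest. The mean signals of these dimmer probe sets were 1942 and 2309, against 2235 and 2723 for the brightest. A further 8 probe sets that carry a member's name beside other symbols lay outside the rule, and 0 of them passed, with changes from -0.49 to 0.19. Ndufa4l2 was not analysed here.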

How the data were processed

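RNA of 4 Affymetrix mouse arrays was compared, 2 of NKT-modulated and 2 of immature DC, grouped by the source names. The array model named in the design text differs from the smaller model of the same family under which the 22690 rows of the value table are annotated, and the annotation was used. The authors deposited intensities on a linear scale, with a signal for each probe set. Images were analysed with GCOS, per the submitters' processing notes; its version, algorithm and target were not found in the labels. A log transformation is described in the design, yet the intensities are linear, and median signals of 129.0 to 158.1 were left as deposited before normalization.

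Without the 64 control probe sets, 22626 entered the test. Symbols came from the platform's annotation: 20380 had 1 symbol, 691 several and 1555 none; for 20351 the current symbol was taken by gene ID from RefSeq (GRCm38.p6). Quantile normalization was run on log2(signal + 16), so fold changes of genes near the pseudocount of 16 are understated. The test was limma's (3.58.1, R 4.3.3; eBayes following the trend of variance with level, two-sided, 2 residual and 4.13 prior degrees of freedom), with Benjamini-Hochberg adjustment over all probe sets. The steps were tested on simulated data. The few arrays limit the precision.

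Named are, per complex and direction, up to 4 called genes with the smallest p, a fixed set of readouts, and up to 3 genes of each other list. Any other gene named was added after its values were seen. Members and lists were chosen with earlier results of these data known. Alternatives covered normalization, pseudocount, dim probe sets, the variance trend, the choice of probe set, the adjustment and leaving out each array.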

Additional observations from a re-analysis of the deposited data

How the results depend on the processing

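With 2 arrays per group, the calls rest on few degrees of freedom. The 7 lower members kept their sign in all 103 alternative values and lost their call in 41 of them. With dim probe sets filtered, without the trend or with the other adjustment the estimates were the main ones, so their sign could not change. For a gene with 1 probe set the same holds for the choice of probe set. The count of 7 lower members was 4 without further normalization, 1 (Cox8b) without the intensity trend, and 0 after median scaling or at a threshold of 0.001. Fits without 1 array leave 1 array in a group and made fewer calls, also over all genes. Their counts are not given. After median scaling 1 member was higher, in complex III. The all-gene split was 742 higher and 855 lower, against 559 and 1027 without normalization and 923 and 718 after median scaling; over all genes 384 were higher and 272 lower without the trend. For complex I the 3 lower genes became 1 without normalization, and 0 without the trend, after median scaling or at 0.001. For complex II 1 became 0 without the trend, after median scaling or at 0.001. For complex IV 2 became 1 without the trend, with a pseudocount of 1, or among probe sets over a mean log2 of 8 or 10. After median scaling or at 0.001 the count of complex IV was 0. For complex V 1 became 2 among probe sets over 10 (chosen after seeing the data). Without the trend, without normalization, after cyclic loess or median scaling, or at 0.001 the count of complex V was 0.

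The median of -0.14 was -0.084 after cyclic loess and 0.014 after median scaling, and -0.18 to -0.10 without 1 array. Medians of complexes I to V after median scaling were -0.013, -0.017, 0.14, 0.15 and 0.009. For complex I the median was -0.21 to -0.13 and for complex III -0.12 to 0.04 without 1 array. For complex II it was -0.24 with all probe sets of a gene averaged and -0.24 to -0.084 without 1 array. For complex IV it was -0.028 without normalization, -0.064 after cyclic loess, -0.13 without the _x_at and _s_at kinds, and -0.125 to -0.035 without 1 array; for complex V -0.21 to -0.11. Counting Ndufa4 with complex IV, or the assembly factors with complex I, moved no count of lower genes. Genes that did not pass and changed sign were Ndufs1 (-0.049) and Cox5a (0.013) without normalization, Sdha (-0.011) with probe sets averaged, and Uqcrc1 (0.019), Cox5a (0.19), Cox6a1 (0.041) and Cox7a2 (0.069) after median scaling. Atp5a1 was 0.029, 0.02, 0.21 and 0.19 without normalization, after cyclic loess, after median scaling and averaged; ND5 was 0.075, 0.004 and 0.25 in the first 3 of these. Without 1 array, ranges that crossed 0 were -0.024 to 0.15 for Ndufs1, -0.016 to 0.13 for Sdha, -0.27 to 0.031 for Sdhc, -0.052 to 0.12 for Cox4i1, -0.055 to 0.63 for Cox4i2, -0.10 to 0.25 for Cox7a1, -0.43 to 0.14 for Cox8a, -0.105 to 0.086 for Atp5a1, -0.028 to 0.16 for Atp5g3 and -0.11 to 0.092 for ND5. The causes were not tested. No paired analysis was possible because the groups share no replicate numbers in the labels.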
